A study of Homo sapiens with 4 samples.

Results

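The AP-1 transcription factors described here are 8 genes, FOS, FOSB, FOSL1, FOSL2, JUN, JUNB, JUND and BATF3, taken by gene name from a table of 60623 genes. All 8 were found, with 1 row each, and all 8 passed the filter on low counts that left 14810 genes for testing. RNA abundance was read from 4 libraries of T24, a cell line established from a human bladder carcinoma. In 2 libraries miR-146a-5p was overexpressed, and the other 2 came from cells given a scramble control. The means was a transfected mimic according to the series' design text, and the sample labels say only overexpression. Both groups come from this 1 line, and no further genotype, dose or time is given in the sources used here. The labels do not say whether libraries of the same group are separate cultures, and p-values therefore reflect the spread of these libraries alone, possibly technical.

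AP-1 is a dimer of proteins that share a basic DNA-binding region and a leucine zipper. Jun proteins pair with each other or with Fos proteins, whereas Fos proteins bind DNA only with a partner, and the dimer reads the sites known as TRE and CRE. Growth factors, stress and inflammatory receptors raise AP-1 through the ERK, JNK and p38 kinases, and many family members are immediate-early genes whose RNA is short-lived. miR-146a-5p is known as a brake on the IRAK1 and TRAF6 arm of Toll-like and interleukin-1 receptor signalling, which lies upstream of both NF-kB and AP-1.

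The mature microRNA and its 7-mer or 8-mer seed matches in the 3' UTRs of the AP-1 genes are shown first. Bases 2 to 8, the seed, are in capitals in the microRNA (RefSeq, GRCh38.p14), and the bases that match the seed are in capitals in the sites.
hsa-miR-146a-5p: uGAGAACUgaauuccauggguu
FOSL2 7-mer matching positions 2 to 8: ttgccctccaAGTTCTCtctctcatac
FOSL2 7-mer matching positions 2 to 7 followed by A: tctgatgtttGTTCTCAaggacttatc
IRAK1 8-mer, upstream: cggaagtcaaAGTTCTCAtggtcagaag
IRAK1 8-mer, downstream: catggtcagaAGTTCTCAtggtgcacga

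FOSL2, which encodes the Fos-related protein Fra-2, was the 1 member of the 8 with a seed match in the 3' UTR of its longest coding transcript (GENCODE 29, GRCh38). Its matches lie at chr2:28415012-28415018 and chr2:28415872-28415878 on the plus strand, in a 3' UTR of 4864 bases. The other 7 members held 0 matches in 3' UTRs of 373 to 2166 bases. Shorter matches, coding sequence and other transcripts were not searched, so a lack of matches does not show that a member has no site. The share of all genes with a match was not computed, and FOSL2 has the longest 3' UTR of the 8. IRAK1 is shown for comparison, with its 2 matches of 8 bases on the minus strand, at chrX:154011812-154011819 and chrX:154011796-154011803. IRAK1 itself fell, with 109 and 109 CPM in the miR-146a-5p libraries against 499 and 716 CPM in the scramble libraries (DESeq2 adjusted p = 5.03e-09, edgeR adjusted p = 0.728). CPM is the count scaled to a common library total, with TMM as the correction for library composition.

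Facts of the libraries bear on every result below. Total estimated counts lay between 20290055 and 22774090. Scramble replicate 2 differed from the rest. Across genes, the log2 CPM of the miR-146a-5p pair had a Pearson correlation of 0.989 and that of the scramble pair 0.925, and the difference of scramble replicate 2 from scramble replicate 1 followed the GC content of transcripts. In the bladder epithelial marker list, KRT7, KRT8 and KRT18 were each at 610.4 TPM or more in every library, while KRT5 and UPK3A were at 0 counts and CDH1 had at most 2. Summed markers of fibroblasts, leukocytes and endothelium reached at most 2.55, 2.89 and 0.65 TPM in any library. The edgeR quasi-likelihood test called 0 of 14810 genes at an adjusted p of 0.05 (549 had an unadjusted p under 0.05), and DESeq2 called 52.

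T24 cells expressed 1 AP-1 gene far above the rest. FOSL1, which encodes Fra-1, had 309 and 311 TPM in the miR-146a-5p libraries against 266 and 339 TPM in the scramble libraries (TPM being abundance per transcript length, as deposited). These levels put FOSL1 above 97.4% of tested genes by mean TPM, and it made up between 69.3% and 71.0% of the summed TPM of the 8 genes in each library. JUN, which encodes c-Jun and is a usual partner of Fra-1, came next, with 54.0 and 53.1 TPM in miR-146a-5p cells against 53.2 and 63.8 TPM in scramble cells. FOS, which encodes c-Fos, was lowest, with 0.630 and 0.350 TPM in miR-146a-5p cells against 0.390 and 0.650 TPM in scramble cells, from 16 and 11 counts with miR-146a-5p against 13 and 25 with scramble.

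Between these ends the order was FOSL2, JUND, JUNB, FOSB and BATF3 by mean TPM. FOSL2 had 27.5 and 29.1 TPM with miR-146a-5p against 23.4 and 26.4 TPM with scramble. JUND, the Jun protein known to be the least inducible of its family, had 19.99 and 20.3 TPM in miR-146a-5p cells against 17.3 and 37.7 TPM in scramble cells. FOSL2, JUND and JUNB changed places between libraries: JUND was above FOSL2 in scramble replicate 2, and JUNB was above JUND in miR-146a-5p replicate 1. FOSL1, JUN, FOSB, BATF3 and FOS held the same rank in all 4 libraries. The Fos genes summed to 341 and 343 TPM in miR-146a-5p cells against 293 and 370 TPM in scramble cells, and the Jun genes to 94.1 and 92.6 TPM in miR-146a-5p cells against 81.1 and 116 TPM in scramble cells. For both sums the miR-146a-5p libraries lay between the scramble libraries.

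**Figure D1:**
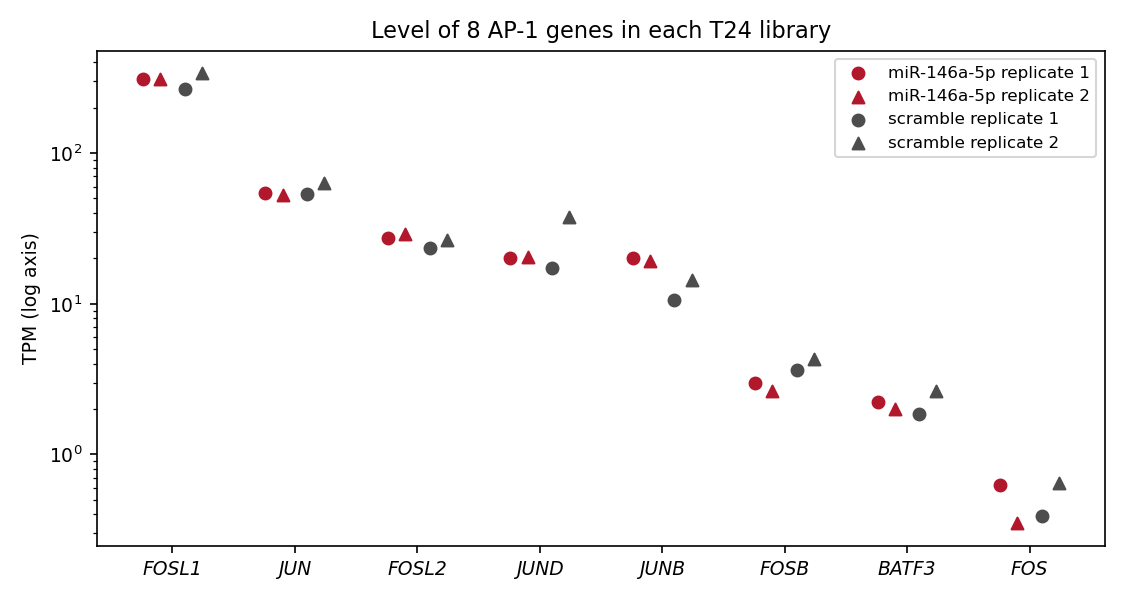
TPM on a log axis for each of the 8 AP-1 genes, ordered by mean level, with 1 point per library (red, miR-146a-5p; grey, scramble; circle, replicate 1; triangle, replicate 2). FOSL1 sits between 266 and 339 TPM and FOS at or below 0.650 TPM in every library.

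The comparison of the groups asks whether raised miR-146a-5p changes the RNA of AP-1 genes. No member passed the test across all genes. edgeR called 0 of the 8, with adjusted p between 0.970 and 0.995 and a lowest unadjusted p of 0.108, and DESeq2 called 0 of the 8, where it called 0.324% of the genes it tested. The authors' deposited table lists an adjusted p of 1.00 for each of the 8. The log2 fold change was positive for JUNB and FOSL2 and negative for the other 6, against 49.9% positive among all tested genes, with a median of -0.20 over the 8 against -0.0014 over all tested genes. That median of the 8 was -0.033 with offsets for GC content and length in the fit, -0.039 on log2(TPM + 1) and -0.072 on log2(TPM + 0.1). In bulk RNA, fewer cells that express a gene and less RNA per cell cannot be told apart.

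Among the Jun genes, JUNB stood highest relative to scramble. JUNB, an immediate-early gene whose protein can oppose c-Jun, had 26.8 and 24.9 CPM in miR-146a-5p cells against 13.5 and 20.8 CPM in scramble cells. Both miR-146a-5p libraries lay above both scramble libraries, as in 18.0% of all tested genes. Its log2 fold change was 0.59 ± 0.29 (SE, n = 2 each, edgeR adjusted p = 0.970), with a 95% interval from 0.872-fold to 2.61-fold. The same order held in TPM, with 20.1 and 19.2 TPM in miR-146a-5p cells against 10.6 and 14.4 TPM in scramble cells. JUNB and HOOK2 overlap by 259 exonic bases on opposite strands in the annotation, and the sources used here do not say whether counting used strand, so reads there cannot be assigned to 1 of them. HOOK2 had 9.95 and 9.01 CPM in miR-146a-5p cells against 7.20 and 9.40 CPM in scramble cells, so its groups overlapped in CPM. In TPM both miR-146a-5p libraries were higher for HOOK2 too, with 6.99 and 8.22 TPM in miR-146a-5p cells against 4.62 and 5.52 TPM in scramble cells.

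JUN had 137 and 132 CPM in miR-146a-5p cells against 129 and 175 CPM in scramble cells. Its groups overlapped, with both miR-146a-5p libraries close to scramble replicate 1, and its 95% interval ran from 0.584-fold to 1.35-fold. JUND had 18.8 and 20.02 CPM in miR-146a-5p cells against 19.1 and 33.2 CPM in scramble cells. Scramble replicate 2 alone was high for JUND, and the log2 fold change was -0.43 ± 0.33 (SE, n = 2 each, edgeR adjusted p = 0.970). The excess of scramble replicate 2 over scramble replicate 1 was 1.74-fold in CPM and 2.18-fold in the authors' TPM.

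Among the Fos genes, FOSB was the 1 member with both miR-146a-5p libraries below both scramble libraries, as in 17.9% of all tested genes. FOSB, an immediate-early gene, had 8.55 and 7.44 CPM in miR-146a-5p cells against 9.70 and 11.99 CPM in scramble cells. Its log2 fold change was -0.44 ± 0.25 (SE, n = 2 each, edgeR adjusted p = 0.970), and its 95% interval ran from 0.464-fold to 1.17-fold. In all, the groups did not overlap in 2 of the 8 members, against 36.0% of all tested genes.

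FOSL1 was at nearly the same mean in both groups, 332 ± 5.34 CPM with miR-146a-5p and 334 ± 82.9 CPM with scramble (SD, n = 2 each). Its libraries read 335 and 328 CPM in miR-146a-5p cells against 276 and 393 CPM in scramble cells, so both miR-146a-5p values lay inside the scramble range, and the 95% interval of the fold was 0.649 to 1.52. FOSL2, the member with seed matches, had 149 and 155 CPM in miR-146a-5p cells against 119 and 153 CPM in scramble cells. Its log2 fold change was 0.16 ± 0.21 (SE, n = 2 each, edgeR adjusted p = 0.970), and its interval reached down to 0.758-fold. The groups overlapped for FOSL2 in CPM but not in TPM, where both miR-146a-5p libraries were higher.

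FOS and BATF3 were near the floor of the assay. FOS had 0.747 and 0.538 CPM in miR-146a-5p cells against 0.581 and 1.10 CPM in scramble cells. BATF3, a partner of Jun proteins known for its role in dendritic cells, had 20 and 21 counts in miR-146a-5p cells against 19 and 33 counts in scramble cells, which is 0.934 and 1.03 CPM with miR-146a-5p against 0.849 and 1.45 CPM with scramble. Both genes overlapped between groups. Their 95% intervals spanned 0.285-fold to 2.07-fold for FOS and 0.371-fold to 1.96-fold for BATF3, so a 2-fold fall was not excluded at this depth and spread. Nor was it excluded for FOSB and JUND, at higher counts, with intervals that reached down to 0.464-fold and 0.395-fold.

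**Figure D2:**
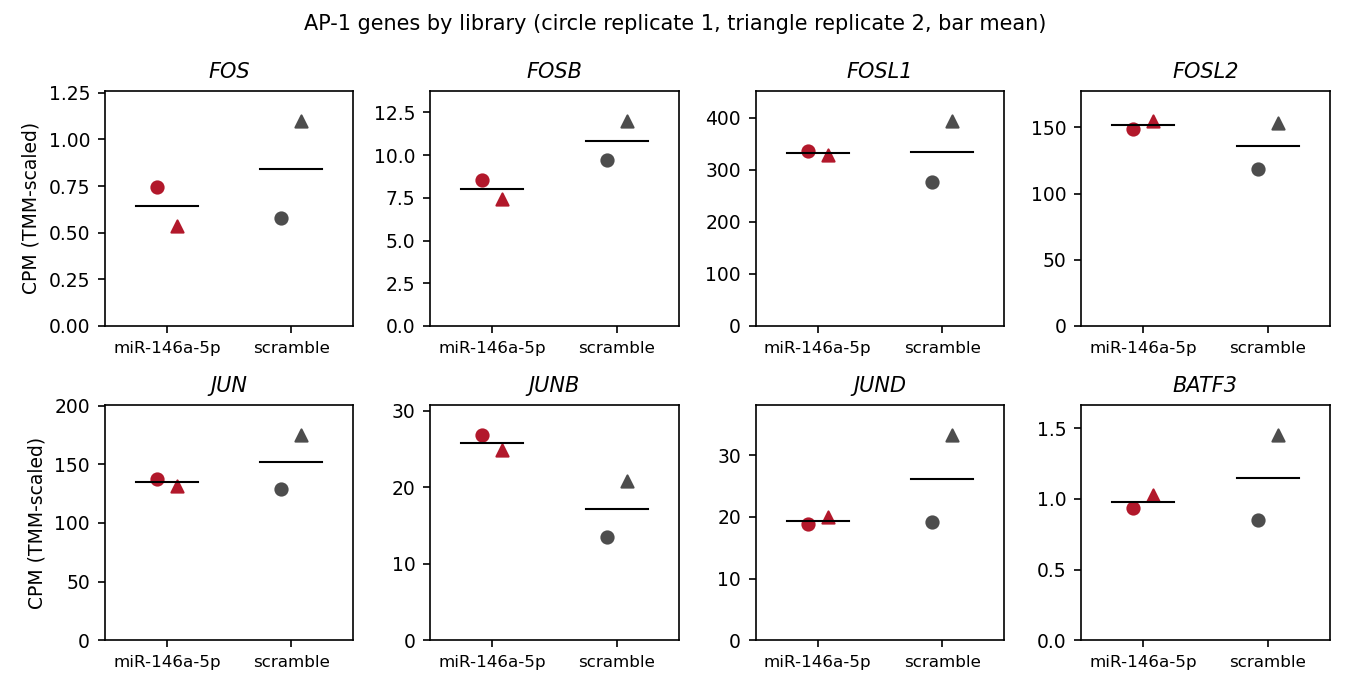
TMM-scaled CPM of each AP-1 gene on axes that start at 0, with miR-146a-5p (red) left of scramble (grey), circles for replicate 1, triangles for replicate 2 and bars for the mean of 2 libraries. JUNB is higher and FOSB lower in both miR-146a-5p libraries, and in the other 6 panels the groups overlap.

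The direction of most members turned on which scramble library they were set against. Every member was higher in scramble replicate 2 than in scramble replicate 1, by 0.30 to 0.82 in log2 CPM, against 55.4% of all tested genes. Against scramble replicate 1 alone, 7 of 8 log2 fold changes were positive, the exception being FOSB, with a median of 0.19. Against scramble replicate 2 alone, 7 of 8 were negative, the exception being JUNB, with a median of -0.47. JUNB was at 0.95 and 0.32 in these fits, and FOSB at -0.26 and -0.58.

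With 1 scramble library left, edgeR takes its spread from the miR-146a-5p pair, so the lone library is assumed to vary as little as they do. Under that assumption edgeR called 3 members against scramble replicate 1 alone (JUNB, FOSL2 and FOSL1, all higher), where it called 10.1% of all tested genes higher and 11.7% lower. Against scramble replicate 2 alone it called JUNB higher and JUN, JUND, FOSL1 and FOSB lower, where it called 28.5% of all tested genes higher and 26.4% lower. JUNB was higher in both fits. The fits share both miR-146a-5p libraries, and for JUNB these already lay above both scramble libraries. The shared direction was therefore set beforehand and adds no separate support for JUNB. DESeq2 called it against scramble replicate 1 alone (adjusted p = 0.00271), where it called 9.64% of genes, and not against scramble replicate 2 alone (adjusted p = 0.322), where it called 38.1%. Against scramble replicate 2 alone DESeq2 did not call FOSB either, which was at -0.59, with JUN at -0.38 and JUND at -0.78.

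**Figure D3:**
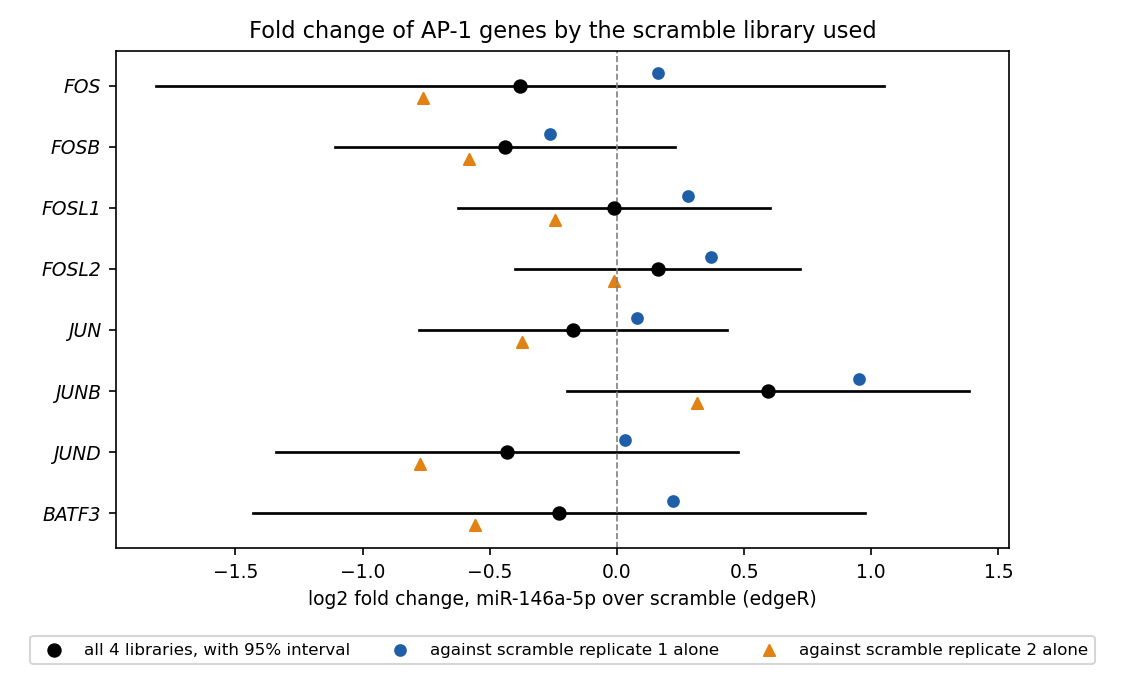
Log2 fold change of miR-146a-5p over scramble by edgeR for each AP-1 gene, from all 4 libraries (black, with the 95% interval), against scramble replicate 1 alone (blue circles) and against scramble replicate 2 alone (orange triangles). Every black interval crosses 0. JUNB and FOSB, the genes whose groups do not overlap, alone keep their side of 0 in all 3 fits.

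Transcript GC content moved with these values. The 8 members lie between 52.6% and 69.7% GC, in deciles 7 to 10 of tested genes ranked by GC. In those deciles the median excess of scramble replicate 2 over scramble replicate 1 was 0.32 to 0.57 in log2 CPM, and the median log2 fold change between groups was -0.11 to -0.23. JUNB, at 64.9% GC, had a log2 fold change of 0.59, where the genes of its decile had a median of -0.23 and an upper quartile of -0.03. FOSB, at 57.7% GC, was at -0.44, where its decile had a lower quartile of -0.32. With offsets for GC content and length in the fit, JUNB was at 0.78 (edgeR adjusted p = 0.247, unadjusted p = 0.00165), FOSB at -0.33 and JUND at -0.23. In the same fit FOS was at -0.31, JUN at -0.062, BATF3 at -0.0047, FOSL1 at 0.15 and FOSL2 at 0.16. The part of GC content in these differences was not tested beyond that fit.

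**Figure D4:**
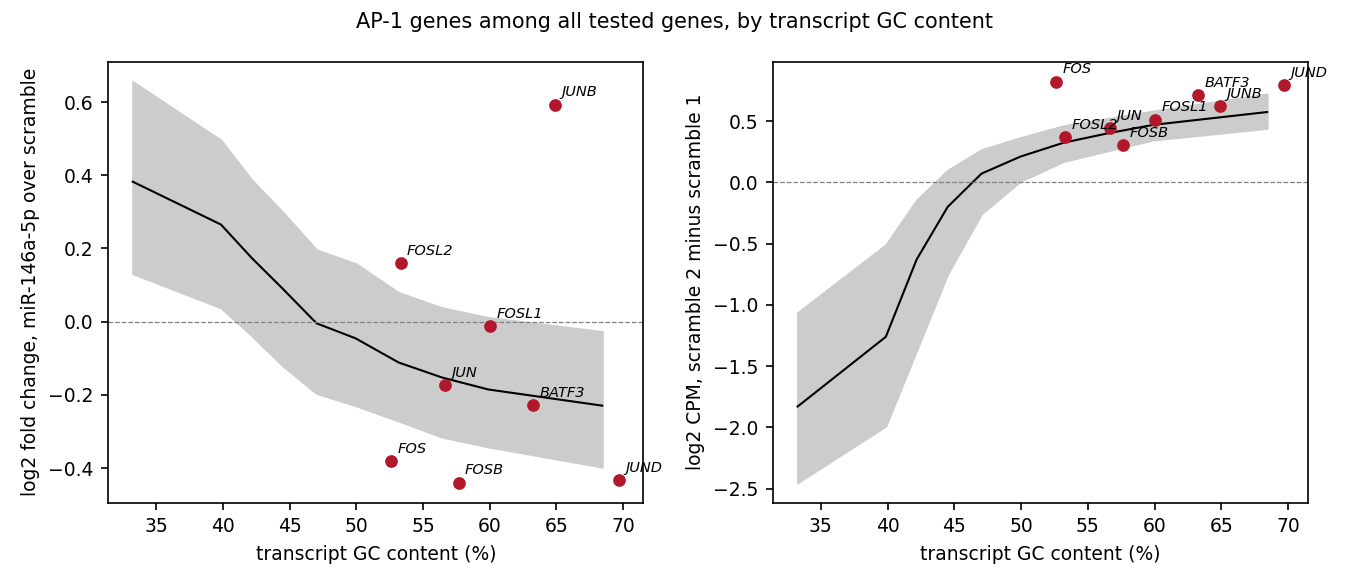
Tested genes by transcript GC content, with the median of each decile (line) and its quartiles (grey), and the AP-1 genes in red; left, log2 fold change of miR-146a-5p over scramble; right, log2 CPM of scramble replicate 2 minus scramble replicate 1. In the left panel JUNB (0.59) and FOSL2 (0.16) lie above the grey band and FOS and FOSB below it. JUND, at 69.7% GC, lies past the end of the drawn band, with a value below the lower quartile of its decile. In the right panel all 8 genes are above 0.

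AP-1 genes are known to be regulated in part by AP-1 and CREB-type factors at their own promoters, so the RefSeq promoters of FOS, FOSB, FOSL2, JUN, JUNB and JUND (GRCh38.p14, 250 bases before to 50 after the start) were searched on both strands. The TRE, TGAGTCA or TGACTCA, was found in FOSL2 alone of these 6, and it occurs in 4.95% of the 35116 promoters of the table. The CRE, TGACGTCA, was found in JUND alone, against 1.85% of promoters. The NF-kB and CArG box motifs, searched with degenerate letters, had 0 matches in the 6, against 5.91% and 1.29% of promoters. Sites outside this window were not searched, nor TRE or CRE sites that differ from the letters given. A lack of matches here therefore does not show that a promoter has no such site. The stretches that hold the matches, with the motif in capitals, are at chr2:28392851-28392879 on the plus strand and chr19:18281804-18281833 on the minus strand.
FOSL2 promoter, TRE: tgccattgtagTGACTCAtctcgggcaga
JUND promoter, CRE: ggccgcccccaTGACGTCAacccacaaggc
Neither gene passed the test, and JUNB and FOSB, whose groups did not overlap, held none of the 4 motifs in these windows. A link between these motifs and the group values was not tested. The AU-rich pentamer ATTTA, a feature of short-lived immediate-early RNAs, occurred in the 3' UTR of all 8 members, from 1 match in FOSL1, JUND and BATF3 to 5 in FOS and 9 in FOSL2. These 3' UTRs run from 373 bases in BATF3 to 4864 in FOSL2, and IRAK1 also held 1 match. The share of all genes with a match was not computed, so the counts do not mark these RNAs as short-lived.

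By shape over the 4 libraries, FOSL1 and JUN were each other's nearest members (Euclidean distance of 0.175 between centred log2 CPM values), as were JUND and BATF3 (0.218). JUNB was the farthest member from FOS, FOSB, FOSL1, JUN, JUND and BATF3. For the nearest other gene, the pool was 13265 tested genes with a mean of at least 1 CPM, from which the members were removed. The nearest to JUNB was CRIP2 (0.0195), to JUN DHX38 (0.00331), to FOSL1 TRIM8 (0.00832) and to FOSL2 SLC4A3 (0.0203). Nearest to FOSB was STARD8 (0.0386), to FOS LINC01003 (0.0189), to JUND MEX3D (0.0172) and to BATF3 CASKIN2 (0.0152). With 4 libraries, of which scramble replicate 2 stands apart along GC content, such distances are a description only.

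Genes around AP-1 were read from lists of general knowledge, chosen with earlier results of these data known. Counts and shares over these lists are therefore a description only. Of the known AP-1 target genes, 26 of 37 were tested, 4 rose by DESeq2, 0 fell and 22 did not pass, where DESeq2 called 0.274% of all genes it tested higher and 0.0499% lower. The 4 were the cytokines CSF2, CXCL8, IL6 and IL1B, all of them also known targets of NF-kB. CSF2, or GM-CSF, had 11.9 and 12.1 CPM in miR-146a-5p cells against 0.671 and 0.878 CPM in scramble cells. IL1B, the inflammatory cytokine interleukin-1 beta, had 213 and 204 CPM in miR-146a-5p cells against 77.0 and 90.2 CPM in scramble cells, a 2.49-fold increase (DESeq2 adjusted p = 0.00778, edgeR adjusted p = 0.959). CXCL8, a neutrophil chemokine, rose 7.03-fold and IL6, an acute-phase cytokine, 4.93-fold (DESeq2 adjusted p = 3.68e-10 and 1.81e-07, edgeR adjusted p = 0.728 for both). The tested targets had a median log2 fold change of 0.27, with 15 of 26 above both scramble libraries and 5 below both, against 18.0% and 17.9% of all tested genes. That median was 0.19 without scramble replicate 1 and 0.38 without scramble replicate 2. These DESeq2 calls came from the fit to all 4 libraries. They were lost whichever miR-146a-5p library was left out. In those fits the spread comes from the scramble pair alone, which was less alike than the miR-146a-5p pair. More listed genes were called when either scramble library was left out, where the spread comes from the miR-146a-5p pair alone.

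Of the immediate-early genes outside AP-1, 22 of 26 in the table were tested and 0 passed edgeR or DESeq2 in either direction (4 at an unadjusted edgeR p under 0.05). Their median log2 fold change was 0.03, with 7 of 22 above and 5 below both scramble libraries, against 18.0% and 17.9% of all tested genes. The median was -0.21 without scramble replicate 1 and 0.22 without scramble replicate 2. KLF6 and KLF4, zinc-finger factors induced by serum and stress, had 143 and 135 CPM in miR-146a-5p cells against 77.7 and 88.3 CPM in scramble cells, and 29.9 and 30.5 CPM in miR-146a-5p cells against 13.99 and 17.9 CPM in scramble cells. CCN2, a secreted matricellular protein, had 72.5 and 76.1 CPM in miR-146a-5p cells against 103 and 144 CPM in scramble cells. Both KLF genes were higher and CCN2 lower in both miR-146a-5p libraries than in either scramble library, without passing the test.

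Other bZIP proteins that can pair with AP-1 members gave 16 tested of 20, 0 called by either test (0 at an unadjusted edgeR p under 0.05) and a median log2 fold change of 0.20, which was 0.11 without scramble replicate 1 and 0.084 without scramble replicate 2. Of the 16, 5 lay above and 2 below both scramble libraries in CPM, against 18.0% and 17.9% of all tested genes. MAFF, a small Maf protein, had 51.8 and 51.4 CPM in miR-146a-5p cells against 27.4 and 43.4 CPM in scramble cells. CREM, a cAMP-responsive factor, had 18.6 and 16.7 CPM in miR-146a-5p cells against 14.8 and 14.7 CPM in scramble cells. ATF1, a CREB-family factor with an AT-rich transcript (34.2% GC), had 50.3 and 48.3 CPM in miR-146a-5p cells against 47.5 and 15.8 CPM in scramble cells, with scramble replicate 2 alone low and groups that overlapped in TPM.

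The kinases and adaptors upstream of AP-1 were all tested, 31 of 31, with 0 called by either test (1 at an unadjusted edgeR p under 0.05) and a median log2 fold change of 0.02. That median was 0.32 without scramble replicate 1 and -0.14 without scramble replicate 2. Of the 31, 5 lay above and 6 below both scramble libraries in CPM, against 18.0% and 17.9% of all tested genes. MAP2K3, a kinase that activates p38, had 41.9 and 44.0 CPM in miR-146a-5p cells against 67.5 and 101.7 CPM in scramble cells. MAP3K8, a kinase that acts on the ERK arm, had 5.04 and 6.61 CPM in miR-146a-5p cells against 3.75 and 3.996 CPM in scramble cells, and MAP2K5, the activator of ERK5, had 10.2 and 9.10 CPM in miR-146a-5p cells against 6.44 and 7.60 CPM in scramble cells. MAP2K3 was lower, and MAP3K8 and MAP2K5 higher, in both miR-146a-5p libraries than in either scramble library in CPM. In TPM the groups of MAP3K8 overlapped, with 4.68 and 5.85 TPM in miR-146a-5p cells against 4.82 and 3.97 TPM in scramble cells. Regulators of AP-1 protein turnover and DNA binding gave 14 tested of 15 in the table, 0 called by either test (1 at an unadjusted edgeR p under 0.05) and a median log2 fold change of 0.00086, which was -0.16 without scramble replicate 1 and 0.053 without scramble replicate 2. Of the 14 regulators, 3 lay above and 3 below both scramble libraries in CPM, against the same shares of all tested genes. TXNIP, a thioredoxin-binding protein, had 155 and 147 CPM in miR-146a-5p cells against 80.9 and 96.7 CPM in scramble cells. NFATC2, which binds DNA beside AP-1, had 1.31 and 0.832 CPM in miR-146a-5p cells against 0.402 and 0.615 CPM in scramble cells. NFATC2 was near the floor of the assay, with 28 and 17 counts with miR-146a-5p against 9 and 14 with scramble. TCF7L2, a partner of c-Jun, had 8.31 and 9.98 CPM in miR-146a-5p cells against 10.7 and 13.04 CPM in scramble cells, with groups that overlapped in TPM.

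**Figure D5:**
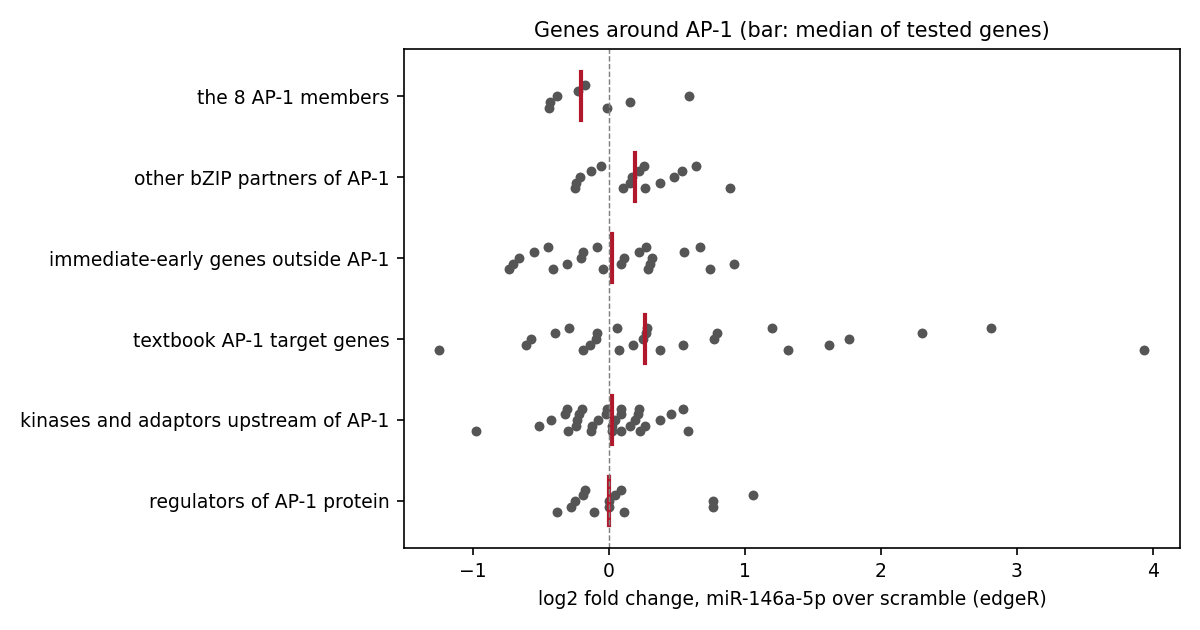
Log2 fold change of miR-146a-5p over scramble by edgeR for the 8 AP-1 genes and for the tested genes of 5 lists around AP-1, with 1 point per gene and a red bar at the median. The medians run from -0.20 for the AP-1 genes to 0.27 for the known AP-1 targets, whose highest point is CSF2.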

How the data were processed

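The authors' deposited table gives an estimated count per gene and library, TPM per library and as group means, a fold change (ratio), its log2 value, and a p-value and adjusted p-value, from DESeq2 per the file headers. Tools named without roles in the submitters' processing notes are HISAT2 2.0.1, HTSeq 0.6.1, cutadapt 1.9.1 and DESeq2, with the build hg19. Per the labels' protocols, the library kit was TruSeq RNA. Where a gene was detected in every library, 34.3% of the deposited counts were fractional, against 0% for the 8 members. Counts were rounded, filtered with filterByExpr (minimum count 10, minimum total 15) and tested with edgeR 4.0.16's quasi-likelihood test (TMM, group as the only term, two-sided, Benjamini-Hochberg over all genes, threshold 0.05). R 4.3.3, DESeq2 1.42.0 (filtering target 0.1) and limma 3.58.1 gave alternatives. Standard errors and 95% intervals come from the F statistic and its degrees of freedom, and log2 CPM used a prior count of 2. The tests were also run on simulated counts, with the same dispersion in all libraries and no GC trend. Such counts do not cover the difference between the scramble libraries. GC content, 3' UTRs and coordinates are from GENCODE 29 (GRCh38), matched by gene ID, with GC for 99.1% of tested genes. Alternatives were another test, normalization, filter or unit, a replicate block, GC and length offsets, and leaving out each library. The members and lists were chosen with earlier results of these data known. Genes named from lists were those past the threshold, up to 4, or else the 3 with the smallest edgeR p. Likeness takes the nearest gene over the 4 libraries. An exact permutation test of 2 against 2 libraries cannot go below 0.333 and was not used.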

Additional observations from a re-analysis of the deposited data

How the results depend on the processing

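The count of AP-1 members past the threshold stayed at 0 in every alternative that used all 4 libraries, and without either miR-146a-5p library. It ranged from 0 to 5 over the fits that left out 1 library. JUNB was higher and FOSB lower in all 18 fits, at 0.31 to 0.95 and -0.59 to -0.26. These fits reuse the same libraries, and the groups of JUNB and FOSB did not overlap, as in 36.0% of all tested genes. Their constant sign follows from that order and is no separate support. Leaving out 1 library gave ranges of -0.78 to 0.16 for FOS, -0.25 to 0.28 for FOSL1, -0.018 to 0.37 for FOSL2, -0.38 to 0.079 for JUN, -0.78 to 0.033 for JUND and -0.57 to 0.22 for BATF3. FOSL1, at -0.01 with edgeR, was positive at 0.010 with limma-voom, 0.15 with GC and length offsets and 0.046 on log2(TPM + 1) and on log2(TPM + 0.1). CREM was at -0.24 with the GC and length offsets. DESeq2 called 52 genes in all and 4 of the listed genes around AP-1. Leaving out 1 library, DESeq2 called 2 to 5349 genes, 0 to 54 of them listed, and edgeR, which called 0 from all 4 libraries, 8 to 8421, 2 to 74 of them listed, with the lone library assumed to vary like the other group. With the replicate number as a block, edgeR called 5 genes, 2 of them listed (CSF2 and CXCL8), and 0 members, and FOSL1 was at 0.010. Deviations of same-numbered libraries had only a weak negative correlation across genes (-0.15), which does not establish either pairing. With the numbers crossed as a block edgeR called 0 genes, with FOSL1 at 0.010 under that pairing. That block and the DESeq2 fits that leave out a library were chosen after seeing the data. The causes were not tested. Counts of 11 to 33 limit FOS and BATF3, and the difference between the scramble libraries limits all 8.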
